A study of Mus musculus with 18 samples.

Results

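The naive pluripotency factors are transcription and chromatin regulators that mark mouse embryonic stem cells in their ground state, and 10 of them were followed here by name in a table of 55450 genes: Klf2, Klf4, Klf5, Esrrb, Tfcp2l1, Zfp42, Nr0b1, Tbx3, Dppa3 and Prdm14. Each of the 10 symbols matched 1 row. The choice was made by name and used no cutoff on their values, but earlier results of these data were known. Levels were given as TPM, the share of transcripts that belongs to a gene after correction for transcript length, scaled so that a library adds up to 1000000. Polyadenylated RNA was sequenced from 3 lines of P19, a mouse embryonic carcinoma line, with 6 libraries for each line. WT carried an intact Dicer1 gene on both alleles (+/+). HetKO was a clonal line with 1 truncated Dicer1 allele (+/-). HM was made from HetKO by changing the allele that remained to E1797G, an RNase IIIb hotspot mutation, so HM carried no wild-type allele (HM/-) and shared the truncated allele with HetKO. Each genotype was represented by 1 line, so a genotype and the history of its clone cannot be told apart, and nothing in the labels states that the 6 libraries of a line came from separate cultures. The p-values therefore measure the spread between these libraries, which may be technical.

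In the mouse embryo the naive state belongs to the early epiblast, before implantation, and it is held by a network around Pou5f1, Sox2 and Nanog that the factors studied here reinforce. Signalling from the cytokine LIF through JAK kinases and STAT3 induces Klf4 and Tfcp2l1, and the factors are lost as cells pass through formative to primed pluripotency, when Fgf5 and Otx2 come up. DICER1 cuts precursor microRNAs into duplexes; its RNase IIIb domain makes the cut that frees the 5p strand, and its RNase IIIa domain the one that frees the 3p strand. Mouse embryonic carcinoma cells keep the core network, while how many of the naive factors they express differs between lines.

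Promoter sequences from RefSeq (GRCm38.p6, 250 bases before to 50 after the start of a gene) were found for 6 of the 10 factors, Klf2, Klf4, Esrrb, Tfcp2l1, Zfp42 and Nr0b1. The promoters of Nr0b1, Zfp42 and Klf2 are shown because each was higher in HM than in WT or HetKO with no overlap between the lines. How many of all genes had no such overlap is not given, so it does not set these genes apart. Capitals mark CCACCC, the box bound by KLF proteins, or its reverse complement GGGTGG, and in Zfp42 also ATTTGCAT, the reverse complement of the octamer ATGCAAAT. Each sequence is written 5′ to 3′ on the strand of the gene. Nr0b1 lies on the + strand at chrX:86191525-86191824, Zfp42 on the - strand at chr8:43306960-43307259 and Klf2 on the + strand at chr8:72318812-72319111.
Nr0b1: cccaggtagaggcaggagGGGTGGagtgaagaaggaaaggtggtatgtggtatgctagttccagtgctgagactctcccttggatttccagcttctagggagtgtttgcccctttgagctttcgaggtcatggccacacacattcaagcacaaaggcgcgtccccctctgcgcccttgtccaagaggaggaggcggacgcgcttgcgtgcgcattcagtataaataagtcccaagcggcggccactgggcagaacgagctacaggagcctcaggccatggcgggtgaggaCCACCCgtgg
Zfp42: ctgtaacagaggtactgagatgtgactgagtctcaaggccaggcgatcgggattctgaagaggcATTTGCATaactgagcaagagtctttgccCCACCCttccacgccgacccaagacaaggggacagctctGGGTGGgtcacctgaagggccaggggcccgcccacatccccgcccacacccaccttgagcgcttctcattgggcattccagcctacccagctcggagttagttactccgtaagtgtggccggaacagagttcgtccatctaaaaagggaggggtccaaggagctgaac
Klf2: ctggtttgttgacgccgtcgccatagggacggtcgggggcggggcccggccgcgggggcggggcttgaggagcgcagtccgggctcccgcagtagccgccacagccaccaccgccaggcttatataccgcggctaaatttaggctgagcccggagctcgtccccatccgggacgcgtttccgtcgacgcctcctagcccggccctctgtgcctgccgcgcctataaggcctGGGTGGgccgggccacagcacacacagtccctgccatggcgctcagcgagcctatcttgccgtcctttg

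The promoters of Nr0b1 and Zfp42 held 2 CCACCC boxes each, counted on both strands, and those of Klf2 and of both Esrrb starts held 1. The box occurred in 31.48% of the 32851 mouse promoters of the same length, so it did not set these genes apart. The octamer, which is bound by POU5F1, occurred in 1.74% of promoters, and among the 6 factors it was found in Zfp42 alone. It started at base -186 relative to the start of the gene. AAGGTCA, the half-site of ESRRB, and TTCCNGGAA, the form bound by STAT3, were in 4.72% and 1.15% of all promoters and had no match in these windows. The paired CCNG half-sites with a gap of 6 bases that TFCP2L1 recognises matched 29.49% of all promoters, overlapped the CCACCC box in Klf2, and were found 2 times each in Nr0b1 and Klf2, 1 time in Klf4 and in 1 of the 2 promoters of Esrrb. A match is a description of the letters and not a measured site.

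The edited gene was checked first. Dicer1 stood between 49.18 and 54.79 TPM in WT with a median of 52.8 TPM, between 42.92 and 53.8 TPM in HetKO with a median of 47.4 TPM, and between 35.42 and 44.2 TPM in HM with a median of 40.2 TPM. It was lower in HM than in WT (log2 fold change -0.37, SE 0.059, adjusted p = 0.0002514) and lower in HM than in HetKO (-0.25, adjusted p = 0.02156), while HetKO against WT missed the threshold (-0.12, adjusted p = 0.2073). The call against HetKO was lost when libraries were centred (adjusted p = 0.186) and with alike libraries averaged (0.232). Reads of Dicer1 as deposited do not show the alleles, so these levels do not check which line carries which edit. Pou5f1, the defining marker of these cells, stood near 2000 TPM in each line, with means of 2088, 2095 and 2040 TPM in WT, HetKO and HM.

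Within each line the 6 libraries fell into 3 pairs of most alike libraries. These were replicates 1 and 4, 2 and 5, and 3 and 6 in WT and HetKO, and 1 and 4, 2 and 3, and 5 and 6 in HM. The labels do not say what the pairs share. HetKO replicates 2 and 5 differed from the other 4 in several of the listed genes. T, which marks early mesoderm, was at 110.46 and 66.17 TPM against 0.94 to 9.13 TPM. Sall4 had 69.52 and 67.75 TPM against 34.27 to 37.55 TPM, and Thy1 had 6.25 and 6.45 TPM against 24.06 to 27.11 TPM. The 6 mesoderm markers together spanned 11.01 to 195.4 TPM in HetKO, 14.5 to 23.07 TPM in WT and 30.56 to 65.5 TPM in HM, and Msgn1 was listed at 0 in all 18 libraries. What sets HetKO replicates 2 and 5 apart, and their part in the results below, was not tested. Since the RNA came from bulk cultures, fewer cells that express a gene and less RNA per cell cannot be told apart.

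The 10 factors covered a wide range of levels and most sat near the lower end of the expressed genes. Nr0b1 was the most abundant in every line, and its 18-library mean of 33.1 TPM was higher than that of 68.7% of the 13956 genes that averaged 1 TPM or more. Klf5 came second with 4.19 TPM, above 22.7% of those genes. Zfp42, Klf2, Dppa3 and Klf4 had means of 1.7, 1.51, 1.29 and 1.1 TPM. Tbx3, Esrrb and Tfcp2l1 stayed below a mean of 1 TPM, at 0.81, 0.77 and 0.64 TPM, and Prdm14 averaged 0.051 TPM. Summed over the 10 genes, the median library held 28.7 TPM in WT, 17.6 TPM in HetKO and 90.2 TPM in HM. Without Nr0b1 these medians were 11.3, 9.14 and 13.8 TPM, with ranges of 8.91 to 21.62 TPM in WT, 5.24 to 10.95 TPM in HetKO and 11.17 to 19.74 TPM in HM. The HM range lay within that of WT and did not overlap that of HetKO.

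**Figure D1:**
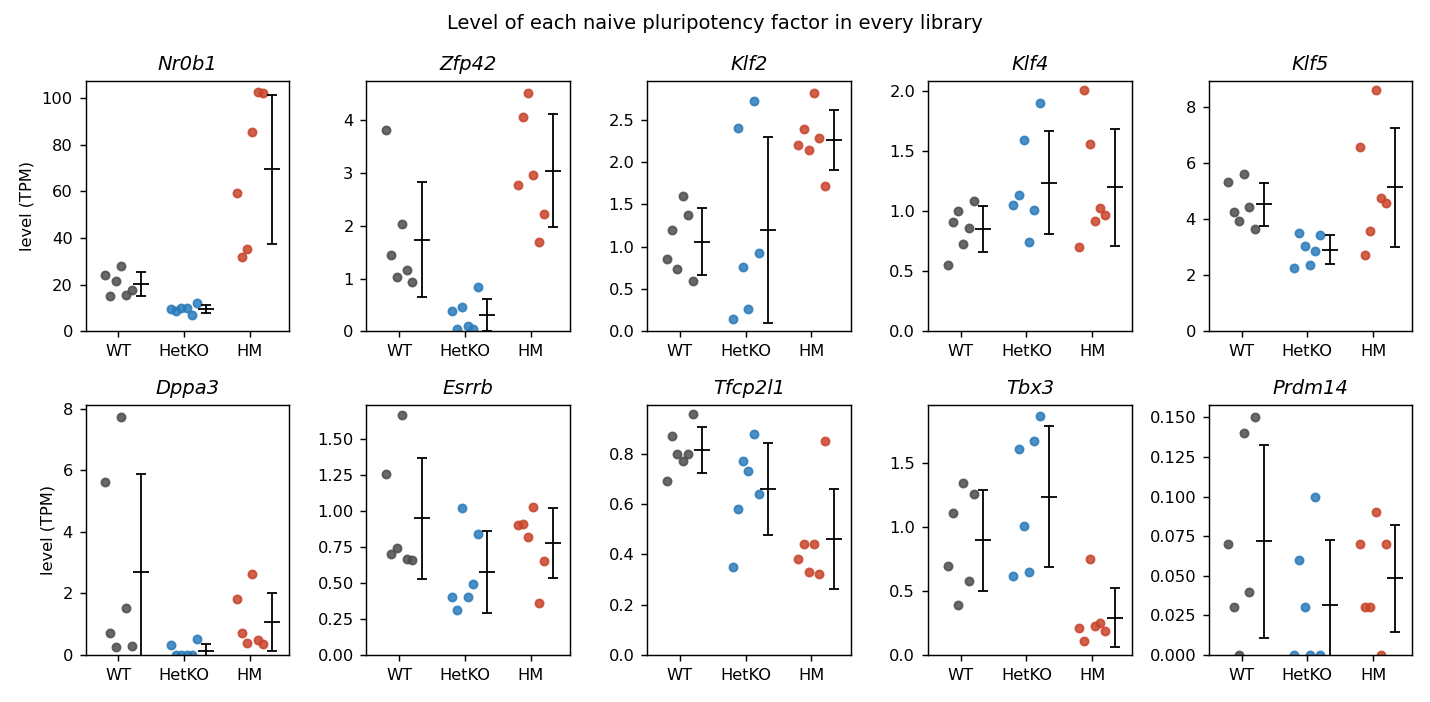
Level of each of the 10 factors in every library, in TPM on a linear axis that starts at 0 and has its own scale in each panel. Points are the 6 libraries of a line in the order of their replicate numbers, and the bar beside them is the mean with its SD (cut off at 0 where it would fall below); the HM points of Nr0b1 lie between 32.02 and 102.6 TPM, all above the highest WT point of 27.96 TPM.

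The order of the levels was similar at its ends and differed in between. In WT, Nr0b1 was followed by Klf5 with no overlap of their ranges. Dppa3, Zfp42, Klf2, Esrrb, Tbx3, Klf4 and Tfcp2l1 came next with means from 2.68 down to 0.815 TPM, and the ranges of neighbours in this order overlapped. In HM the order after Nr0b1 was Klf5, Zfp42, Klf2, Klf4, Dppa3, Esrrb, Tfcp2l1 and Tbx3, with means from 5.13 down to 0.29 TPM and overlap between neighbours throughout. In HetKO, Klf5 was followed by Tbx3, Klf4 and Klf2 at 1.24, 1.24 and 1.2 TPM, and Zfp42 and Dppa3 stood last but for Prdm14, at 0.307 and 0.137 TPM.

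The first comparison asked how the line with the hotspot mutation differed from wild type. Among the 10 factors, 2 were higher in HM than in WT, Nr0b1 and Klf2, and none of those tested was called lower. Across all 14043 genes tested with limma on log2(TPM + 1), 19.4% were called higher in HM and 32% lower, at an adjusted p under 0.05. The share of higher calls was 37.7% as deposited, 61.03% after centring each library on its median and 51.08% after quantile normalization, and the median gene moved from -0.09 to 0.08 and 0.02 on the log2 scale. At an unadjusted p under 0.05 the counts for the factors were 3 higher and 0 lower. The share of all genes that passed this unadjusted threshold is not given, so such counts, here and below, do not set the factors or lists apart. Of the 10 genes, 6 averaged 1 TPM or more over the 12 libraries, as the test required, and Esrrb, Tfcp2l1, Tbx3 and Prdm14 did not.

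Nr0b1 encodes DAX1, an orphan nuclear receptor without a classical DNA-binding domain that acts mostly as a corepressor and binds POU5F1 and other factors in embryonic stem cells. It lies at chrX:86191764-86195947 (GRCm38, + strand). In WT its level was 24.13, 15.07, 21.35, 27.96, 15.75 and 17.49 TPM in replicates 1 to 6. In HM it was 59.35, 32.02, 35.19, 85.71, 102.6 and 102.37 TPM. Every HM library was above every WT library, and HM replicates 2 and 3 were the lowest of their line. The means were 69.5 ± 32 TPM (SD, n = 6) and 20.3 ± 5.11 TPM (SD, n = 6), a 3.43-fold difference. The log2 fold change was 1.62 with a 95% confidence interval of 0.98 to 2.25 (SE 0.295, adjusted p = 0.0006707). It was 2.06 without HM replicates 2 and 3 and 1.8 without WT replicates 1 and 4, and it passed with each pair of alike libraries averaged into 1 replicate (adjusted p = 0.02801).

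Klf2 is a Krüppel-like zinc finger factor that acts with Klf4 and Klf5 in holding the naive state. It lies at chr8:72319033-72321656 (GRCm38, + strand). Its levels were 0.85, 1.2, 0.74, 1.6, 1.37 and 0.59 TPM in the WT replicates. In HM they were 2.2, 2.39, 2.14, 2.82, 2.28 and 1.72 TPM. The lines did not overlap, although the highest WT library at 1.6 TPM and the lowest HM library at 1.72 TPM were close. The means of 2.26 ± 0.358 and 1.06 ± 0.394 TPM (SD, n = 6 each) gave a log2 fold change of 0.68 (95% confidence interval 0.36 to 0.99, SE 0.145, adjusted p = 0.001881). Averaging alike libraries left an adjusted p of 0.04764.

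Zfp42 encodes REX1, a zinc finger protein widely used as a marker of the naive state and a relative of YY1. It lies at chr8:43295063-43306980 (GRCm38, - strand). WT libraries had 3.82, 1.45, 1.03, 2.03, 1.16 and 0.93 TPM and HM libraries had 2.78, 4.07, 4.52, 2.97, 1.7 and 2.23 TPM. The ranges overlapped through WT replicates 1 and 4. The log2 fold change of 0.60 (95% confidence interval 0.08 to 1.12) had an adjusted p of 0.05209, just outside the threshold. It passed under 5 other settings, with adjusted p of 0.04489 at a pseudocount of 0.1, 0.01818 centred, 0.009783 quantile normalized, 0.0383 with the 3 lines in 1 fit and 0.003818 without WT replicates 1 and 4. It failed under 5 settings, with 0.1066 without a filter, 0.08127 in the unequal-variance test, 0.05922 with the replicate block, 0.1976 with alike libraries averaged and 0.2228 without HM replicates 2 and 3, where the log2 fold change fell to 0.38. Within HM, the libraries with the most Nr0b1 had the least Zfp42: replicates 5 and 6 held 102.6 and 102.37 TPM of Nr0b1 and 1.7 and 2.23 TPM of Zfp42, while replicates 2 and 3 had the least Nr0b1 and the most Zfp42 of the line.

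The other 2 Krüppel-like factors and Dppa3 were tested and not called. Klf4, a target of STAT3 and one of the reprogramming factors, ranged from 0.55 to 1.08 TPM in WT and from 0.7 to 2.01 TPM in HM (log2 fold change 0.22, 95% confidence interval -0.12 to 0.56, adjusted p = 0.2523). Its adjusted p was 0.03435 when centred and 0.03022 when quantile normalized. Its mean was 0.855 TPM in WT and 1.2 TPM in HM, so it passed the filter only through HM. Klf5, which is also needed for the first epithelial lineage of the embryo, had 5.31, 4.25, 3.95, 5.61, 4.43 and 3.63 TPM in WT and 6.56, 2.73, 3.59, 8.61, 4.75 and 4.56 TPM in HM. The HM libraries lay on both sides of the WT range (log2 fold change 0.09, 95% confidence interval -0.34 to 0.53, adjusted p = 0.7265). Dppa3, a maternal factor that protects methylation marks and is used as a naive marker, was highest in WT replicates 1 and 4, at 5.61 and 7.72 TPM, and lay between 0.26 and 1.51 TPM in the other 4. In HM it was again highest in replicates 1 and 4, at 1.83 and 2.63 TPM, against 0.35 to 0.72 TPM in the others (log2 fold change -0.50, 95% confidence interval -1.57 to 0.57, adjusted p = 0.4164).

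Tfcp2l1, Tbx3, Esrrb and Prdm14 were below the filter in this comparison and are given as levels. Tfcp2l1, a LIF target of the grainyhead family, had 0.69, 0.87, 0.8, 0.77, 0.8 and 0.96 TPM in WT and 0.38, 0.44, 0.33, 0.44, 0.32 and 0.85 TPM in HM. All but 1 of the HM libraries were below the WT range. Tbx3, a T-box factor, had 0.7, 1.11, 0.39, 1.35, 0.58 and 1.26 TPM in WT and 0.21, 0.11, 0.75, 0.23, 0.25 and 0.19 TPM in HM, where again 5 of 6 were below the WT range. When every gene with a value above 0 was tested, Tfcp2l1 had a log2 fold change of -0.32 (adjusted p = 0.01556) and Tbx3 one of -0.55 (adjusted p = 0.01707). At levels under 1 TPM the pseudocount of 1 holds these values close to 0, and the table keeps no depth from which a count could be had. Esrrb, an orphan nuclear receptor downstream of Nanog, ranged from 0.66 to 1.67 TPM in WT and from 0.36 to 1.03 TPM in HM. Prdm14, which represses primed programmes, did not exceed 0.15 TPM in any of the 18 libraries and was listed at 0 in 5 of them.

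**Figure D2:**
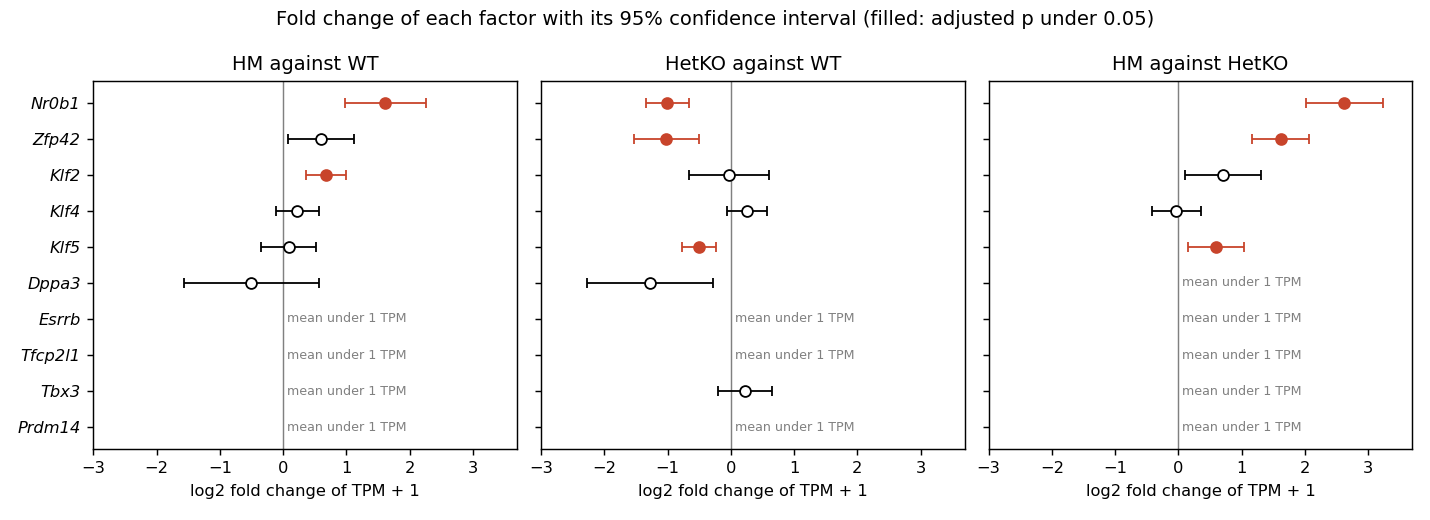
Log2 fold change of TPM + 1 for each factor in the 3 comparisons, with its 95% confidence interval from limma. Filled red points passed an adjusted p under 0.05 and open points did not; factors whose mean over the 12 libraries was under 1 TPM have no point. Nr0b1 has the point farthest from 0 in HM against WT at 1.62 and in HM against HetKO at 2.62.

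The second comparison set HetKO against WT, the line with 1 truncated allele against wild type, each as 1 line. Of the factors, 3 were lower in HetKO, Nr0b1, Zfp42 and Klf5, and none of the 7 tested was called higher. At an unadjusted p under 0.05 the factors gave 4 lower and 0 higher, beside an unknown share of all genes. Among all 13999 genes tested, 6.44% were called lower and 3.71% higher. The share of calls that were higher was 36.52% as deposited, 50.66% centred and 48.05% quantile normalized. These calls rested on the libraries as separate replicates: with alike libraries averaged, 0 of the factors passed with limma, 3 had an unadjusted p under 0.05, and adjusted p rose to 0.1432 for Nr0b1, 0.3319 for Zfp42 and 0.443 for Klf5.

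Nr0b1 in HetKO had 9.34, 8.87, 9.92, 9.84, 6.89 and 11.9 TPM. All 6 were below the lowest WT library at 15.07 TPM, and their SD of 1.63 TPM was the smallest of the 3 lines. The log2 fold change was -1.01 (95% confidence interval -1.35 to -0.67, SE 0.157, adjusted p = 0.001506). Zfp42 had 0.38, 0.04, 0.45, 0.09, 0.05 and 0.83 TPM in HetKO, all below the WT range. It was lower by a log2 fold change of -1.02 (SE 0.238, adjusted p = 0.01734), and the adjusted p was 0.07361 without HetKO replicates 2 and 5 and 0.05718 after quantile normalization. Its means were 0.307 TPM in HetKO and 1.74 TPM in WT, so it passed the filter of 1 TPM only through WT. Without WT replicates 1 and 4 its mean was under 1 TPM and it was not tested. Klf5 had 2.26, 3.49, 3.04, 2.37, 2.87 and 3.44 TPM in HetKO. All were below the lowest WT library at 3.63 TPM, with a log2 fold change of -0.50 (SE 0.124, adjusted p = 0.02418). That call did not hold under several settings, among them centring (adjusted p = 0.05998), quantile normalization (0.1496), 3 lines in 1 fit (0.08644), no filter (0.0521) and leaving out WT replicates 1 and 4 (0.08952).

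Dppa3 was listed at 0 in 4 of the 6 HetKO libraries and at 0.31 and 0.51 TPM in replicates 1 and 6. Its log2 fold change of -1.27 had an adjusted p of 0.09453, and of 0.04507 at a pseudocount of 0.1. Its means were 2.68 TPM in WT and 0.137 TPM in HetKO, so it passed the filter only through WT. Klf2 split within HetKO. Replicates 2 and 5, the libraries with high T, had 2.4 and 2.72 TPM, replicates 3 and 6 had 0.76 and 0.92 TPM, and replicates 1 and 4 had 0.14 and 0.26 TPM. The WT range lay between these extremes, and the mean difference was -0.03 (95% confidence interval -0.66 to 0.60, adjusted p = 0.9583). Tbx3 passed the filter here alone, with 0.62 to 1.87 TPM in HetKO (log2 fold change 0.23, adjusted p = 0.4795), and Klf4 ranged from 0.74 to 1.9 TPM (0.26, adjusted p = 0.2835, or 0.04756 quantile normalized). Both passed the filter only through HetKO, since their WT means were 0.898 and 0.855 TPM. Tfcp2l1 at 0.35 to 0.88 TPM and Esrrb at 0.31 to 1.02 TPM overlapped WT and were below the filter.

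The third comparison set HM against HetKO, the line it was made from. Here 3 factors were higher in HM, Nr0b1, Zfp42 and Klf5, and none of the 5 tested was called lower. The counts at an unadjusted p under 0.05 were 4 higher and 0 lower, beside an unknown share of all genes. Among all 13762 genes tested, 14% were called higher and 20.6% lower. Higher calls made up 40.42% as deposited, 60.91% centred and 49.3% quantile normalized. The comparisons share their libraries, so their calls are not separate evidence.

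Nr0b1 had the largest log2 fold change of the 5 tested factors at the pseudocount of 1, while at a pseudocount of 0.1 that of Zfp42 was larger (3.25 against 2.73). The lowest HM library at 32.02 TPM was above the highest HetKO library at 11.9 TPM, the means differed 7.35-fold, and the log2 fold change was 2.62 (95% confidence interval 2.01 to 3.23, SE 0.283, adjusted p = 3.45e-05). Zfp42 had means of 3.04 and 0.307 TPM, a 9.93-fold difference. It passed the filter of 1 TPM only through HM, since its HetKO mean lay below that level. No HM library was below 1.7 TPM and no HetKO library was above 0.83 TPM (log2 fold change 1.62, SE 0.208, adjusted p = 0.0001316). Both calls passed with alike libraries averaged, at adjusted p of 0.016 and 0.03653. Klf5 was higher by 0.59 on the log2 scale (95% confidence interval 0.15 to 1.03, adjusted p = 0.04079), and its lines overlapped, since HM replicate 2 at 2.73 TPM was within the HetKO range. Its adjusted p was 0.2488 with alike libraries averaged. Klf2 was not called with all libraries (0.71, adjusted p = 0.06552) and was called without HetKO replicates 2 and 5 (1.13, adjusted p = 0.000635). Klf4 differed by -0.03 (95% confidence interval -0.42 to 0.35, adjusted p = 0.9051). Tbx3 was below the filter, with 5 of the 6 HM libraries at or below 0.25 TPM and the HetKO libraries at or above 0.62 TPM. In the test of every gene with a value above 0 it had a log2 fold change of -0.77 (adjusted p = 0.00954). Tfcp2l1, Esrrb, Dppa3 and Prdm14 were below the filter too, and the lines overlapped in each. Tfcp2l1 had 0.32 to 0.85 TPM in HM and 0.35 to 0.88 TPM in HetKO. Dppa3 had 0.35 to 2.63 TPM in HM and did not exceed 0.51 TPM in HetKO.

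**Figure D3:**
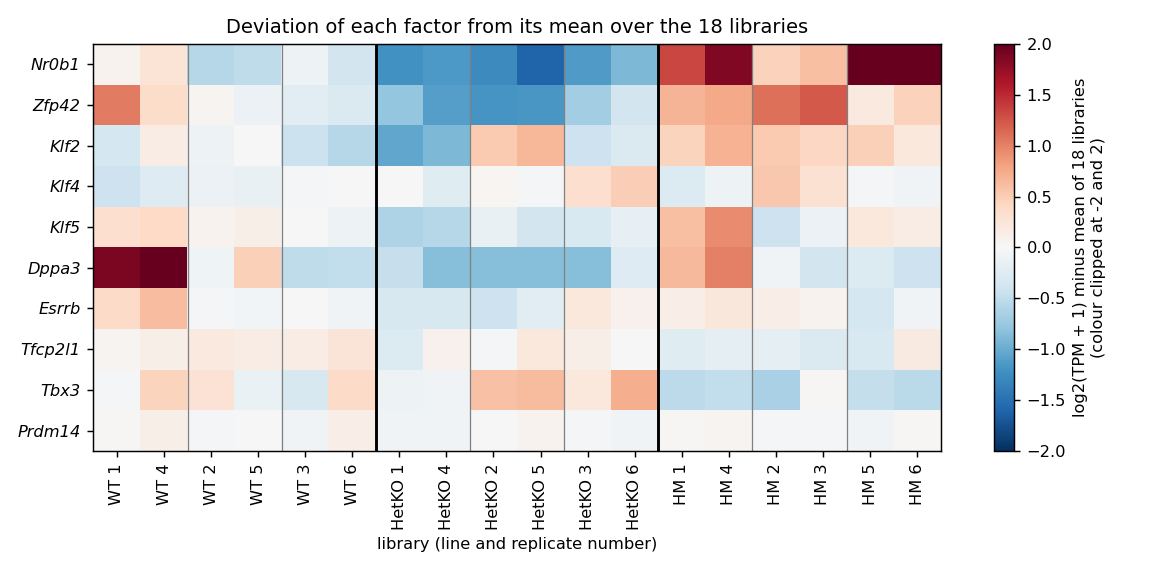
Deviation of each factor (rows) from its own mean over the 18 libraries (columns), as log2(TPM + 1), with colour clipped at -2 and 2. Black lines separate the 3 lines and grey lines the pairs of most alike libraries; Nr0b1 is above its mean in all 6 HM columns and below it in all 6 HetKO columns, and Dppa3 stands out in WT replicates 1 and 4, at 5.61 and 7.72 TPM.

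Over the 18 libraries the factors did not move as 1 group. The highest correlations of log2(TPM + 1) between factors were 0.78 for Esrrb with Dppa3 and 0.74 for Zfp42 with Nr0b1. For Klf2 the value was 0.11 with Klf4 and 0.48 with Klf5. The libraries share 3 lines and their alike pairs, so these values describe the table and carry no p. Among 9575 other genes that averaged 5 TPM or more, the pattern of Nr0b1 was most like that of Tgfb1 (r = 0.97), which encodes a secreted growth factor, and of Fgf5 (r = 0.96). Zfp42 was most like Nptx2 (0.94) and Tpm1 (0.93), Klf2 was most like Nr5a1 (0.94) and Zfp36l1 (0.94), and Klf5 was most like Grhl2 (0.93) and Rbms1 (0.90). For Dppa3 these genes were Glud1 (0.92) and Acta2 (0.91), and for Klf4 they were Mrpl9 (0.84) and Pex14 (0.83).

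The factors are scattered over the genome, and their neighbours were read as a check of the regions around them. The 6 tested genes within 5 Mb of Nr0b1 had a median log2 fold change of -0.15 in HM against WT and -0.05 in HM against HetKO, beside -0.09 and -0.05 over all genes. The 40 neighbours of Zfp42 had -0.23 in both comparisons and the 123 of Klf2 had -0.12 in HM against WT. These medians were below 0, and so was that over all genes, which became 0.08 in HM against WT when libraries were centred. Tbx3 overlaps an antisense gene, Tbx3os1, that did not exceed 0.19 TPM, and retrocopies of Zfp42 and Dppa3 were listed at up to 0 and 0.33 TPM. Tfcp2l1 overlaps an snRNA gene on its own strand, Gm23497 (chr1:118681821-118681950), listed at 14.93 TPM in WT replicate 6, where Tfcp2l1 had its highest WT value of 0.96 TPM, and at 0 in every other library. How reads were split between such genes is not given in the sources used here, so the low values of Tfcp2l1 and Dppa3 are uncertain.

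The 3′ UTRs of the factors were searched for matches to the seeds (bases 2 to 8) of 6 5p strands, of 4 3p strands from the same hairpins that are usually discarded, and of miR-294-3p, a guide strand of the embryonic miR-290 cluster. A match covered all of these bases, or all but base 8 where the site ended in an A. In the longest annotated UTR of each gene there were 11 matches to the 5p seeds, 9 to the discarded 3p strands and 1 to miR-294-3p. Nr0b1, Zfp42 and Klf2, the factors higher in HM in at least 1 comparison with no overlap, had none in UTRs of 352, 533 and 737 bases, and neither did Esrrb in 2563 bases. The share of genes with UTRs this short that have no match to any of these seeds is not given, so having none does not set these factors apart. Over all annotated 3′ UTRs, Nr0b1, Zfp42 and Klf2 still had none, while Esrrb had 1 match to a 5p seed. The median UTR of the 21022 genes searched had 960 bases, and Klf5 and Klf4 had 1841 and 982 bases. Klf4 had matches to 5p seeds alone and Klf5 to both arms, and 4 of the strands with matches in these genes are shown with the seed in capitals.
miR-7a-5p: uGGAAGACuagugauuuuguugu
miR-7a-1-3p: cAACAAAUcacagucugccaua
miR-15b-3p: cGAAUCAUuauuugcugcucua
miR-26a-5p: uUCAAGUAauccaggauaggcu

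Klf4 had 2 matches to miR-7a-5p and 1 to miR-26a-5p, and Klf5 had 1 match to miR-7a-5p, 1 each to miR-7a-1-3p and miR-15b-3p, and 1 to the seed that miR-17-3p and miR-20b-3p share. The Klf4 match to miR-26a-5p and the Klf5 matches to miR-7a-1-3p and to the shared seed lacked the last seed base. The windows below are written on the strand of the gene, 5′ to 3′, with the matching bases, and an A right after them, in capitals. The matches of Klf4 lie at chr4:55528045-55528051 and chr4:55527469-55527475 on the - strand, and those of Klf5 at chr14:99304082-99304089 and chr14:99304868-99304875 on the + strand (GRCm38). Over all annotated 3′ UTRs, Klf5 had 2 matches to 5p seeds and 4 to the discarded 3p strands. Its gene runs to chr14:99315036, beyond the windows shown, and which UTR these cells use was not tested.
Klf4 with miR-7a-5p, first: ttcacactGTCTTCCcacgaggg
Klf4 with miR-7a-5p, second: ctagttttGTCTTCCgatctaca
Klf5 with miR-7a-5p: atccttaaGTCTTCCAtttcattt
Klf5 with miR-15b-3p: atccaaagATGATTCAaactccag

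A match to the seed of miR-7a-5p was present in 23.2% of the genes searched and one to miR-15b-3p in 13.6%, so single matches are common. Tfcp2l1, with a UTR of 7734 bases, longer than that of 99.1% of genes, held 4 matches to 5p seeds, 4 to the discarded 3p strands and the 1 to miR-294-3p. Tbx3 held 2 and 1, Dppa3 0 and 1, and Prdm14 1 and 0. Binding at any of these matches was not measured here.

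Genes of the surrounding network were read from fixed lists, to place the factors. The list counts stand beside the shares over all tested genes, which were 19.4% higher and 32% lower in HM against WT, 3.71% and 6.44% in HetKO against WT, and 14% and 20.6% in HM against HetKO. In HM against WT, 4 of the 11 core pluripotency genes were higher and 2 were lower, with a median log2 fold change of 0.20 against -0.09 over all genes; centring gave 6 and 2 and quantile normalization 3 and 2. Sox2 rose from a mean of 98.6 to 157 TPM (log2 fold change 0.66, adjusted p = 1.946e-05) and Utf1, a chromatin-bound stem cell factor, from 219.7 to 381 TPM (0.81). Nanog, the homeobox factor upstream of Esrrb, fell from 46.9 to 18.8 TPM (-1.24, adjusted p = 0.0009033), and Sall4 fell from 24.5 to 8.85 TPM (-1.83). The HM libraries of Sall4 were split, with 1.24 and 0.63 TPM in replicates 1 and 4 and 11.53 to 13.47 TPM in the others, and its adjusted p was 0.09957 with alike libraries averaged. Nanog was also lower in HM than in HetKO (-2.10), where it averaged 86.3 TPM. Over the 3 line means Nanog was highest in HetKO and lowest in HM, the opposite of Nr0b1. In HetKO against WT limma did not call Nanog (0.86, adjusted p = 0.06511), although it passed when centred (0.04867). With alike libraries averaged its adjusted p was 0.4862, and HetKO replicates 1 and 4 lay within the WT range.

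In the list of the LIF, JAK and STAT3 pathway, 0 of 10 tested genes were higher and 5 were lower in HM than in WT with limma, and the counts at an unadjusted p under 0.05 were the same. The 5 became 1 when libraries were centred, quantile normalized or averaged in alike pairs, and Pim1 then had adjusted p of 0.2118, 0.1092 and 0.1558. Socs3, the feedback inhibitor induced by STAT3, had a log2 fold change of -0.80 (adjusted p = 0.001486) and Pim1, a kinase gene that STAT3 induces, one of -0.39 (adjusted p = 0.02327). Against HetKO, 2 of the pathway genes were higher in HM and 1 was lower. Of the other naive-state genes, 1 was higher and 4 were lower in HM than in WT among 8 tested. Fgf4, a growth factor gene driven by SOX2 and POU5F1, rose from 11.4 to 27.6 TPM (1.14), and Tcl1 and Fbxo15 fell by 1.91 and 1.17 on the log2 scale. Tcl1 averaged 4.07 TPM in WT and 0.113 TPM in HM, so it passed the filter only through WT. The WT libraries of Tcl1 were split, with 0.27 and 0.84 TPM in replicates 1 and 4 and 5.44 to 6.26 TPM in the others. In HetKO against WT 0 of that list were higher and 4 were lower, Fgf4 among them (-1.40). None of these HetKO calls held with alike libraries averaged, where Fgf4 had an adjusted p of 0.2495 and 4 of the list had an unadjusted p under 0.05 with limma. In HM against WT with alike libraries averaged, the core list had 3 higher and 1 lower, the other naive-state genes 1 and 3, the formative and primed list 3 and 0 and the germ cell list 1 and 1.

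The formative and primed list had 4 of 11 genes higher and 0 lower in HM against WT, also at an unadjusted p. Fgf5, the usual marker of exit from the naive state, rose from 6.21 to 32.8 TPM in HM and stood at 1.9 TPM in HetKO, the same order of lines as Nr0b1. Lef1, an effector of WNT signalling, rose from 7.95 to 33.7 TPM (1.90). Of the primordial germ cell genes, 1 was higher and 3 were lower among 6 tested, with Prdm1 at 1.04 and Ddx4 and Dnd1 at -1.25 and -1.03, of which Dnd1 had an adjusted p of 0.1031 when centred and 0.1177 when quantile normalized. Ddx4 averaged 1.895 TPM in WT and 0.2 TPM in HM, so it passed the filter only through WT. Among 17 tested relatives of the factors, 3 were higher and 8 were lower, or 3 and 6 when centred or quantile normalized. Klf11 (-1.42) and Klf10 (-1.24), which encode repressors induced by TGFβ, fell, whereas Klf2 rose. Yy2, a relative of Zfp42, rose by 0.65 and Ubp1, a relative of Tfcp2l1, by 0.39. With alike libraries averaged the relatives had 2 higher and 5 lower, and Ubp1 had an adjusted p of 0.1087.

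**Figure D4:**
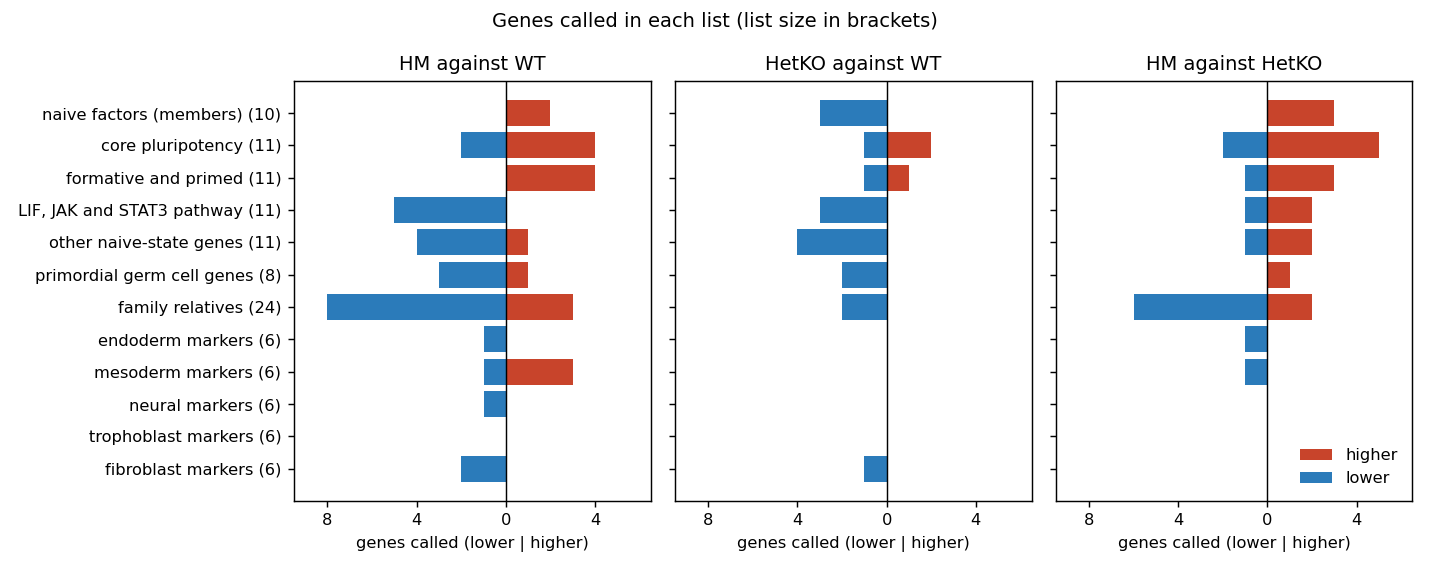
Number of genes called higher (red, to the right) or lower (blue, to the left) at an adjusted p under 0.05 in each fixed list, in the 3 comparisons, with the size of the list in brackets. The factors have 2, 0 and 3 genes called higher and 0, 3 and 0 called lower.

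Of 6 markers each for other cell types, 5 endoderm, 3 mesoderm, 3 neural, 4 trophoblast and 1 fibroblast genes were below 1 TPM in all 6 WT libraries, and Ttr was listed at 0 in all 18 libraries. In HM against WT the mesoderm list had 3 genes higher and 1 lower of 4 tested, with T at 1.80, Eomes at 0.94 and Tbx6 at -1.01. The endoderm list had 1 lower of 1 tested (Gata6, -0.83), the neural list 1 lower of 2 (Map2, -1.08) and the fibroblast list 2 lower of 4 (Col1a2, -0.80, and Thy1, -0.43). Tbx6 and Gata6 passed the filter only through WT, with means of 2.76 and 1.88 TPM there and 0.86 and 0.597 TPM in HM. With alike libraries averaged the mesoderm list had 2 higher and 1 lower, the endoderm list 0 (Gata6, adjusted p = 0.06712; 1 at an unadjusted p under 0.05) and the fibroblast list 1 (Col1a2 lost, adjusted p = 0.05795), and with the 3 lines in 1 fit the mesoderm list had 1 higher and 1 lower. The trophoblast list had 0 calls of 1 tested with limma, and 0 at an unadjusted p under 0.05. The part of these cells in the levels of the factors was not tested.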

How the data were processed

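RNA of 18 P19 libraries (6 each of WT, HetKO and HM) was extracted with TRIzol, made into stranded, paired-end mRNA libraries and sequenced. The deposited table holds TPM for 55450 genes, rounded to 2 decimals, which the authors estimated with RSEM after merging read pairs; the submitters' processing notes name cutadapt, STAR and the build mm10, without versions. Each library adds up to 1000000, so depth is unknown, and neither counting intervals nor detection floors were given. Groups came from the sample titles, and 0 columns were left unused.

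For each comparison, limma 3.58.1 (R 4.3.3, empirical Bayes with a variance trend) was run on log2(TPM + 1) of genes that averaged 1 TPM or more in its 12 libraries, adjusted after Benjamini-Hochberg over all tested genes, with a threshold of 0.05; with the added 1, low genes show smaller fold changes than their TPM ratio. The code was tested on simulated data. The 10 factors and the 11 other lists (106 genes) were chosen with earlier results of these data known. Text was limited to the 10 factors, Dicer1, core pluripotency genes, up to 2 risen and 2 fallen genes per other list in HM against WT, the 2 most alike genes per factor that averaged 1 TPM or more, and neighbours within 5 Mb. Alternatives changed the pseudocount, filter, scaling, samples, test and replicate unit; leaving out WT replicates 1 and 4 was added after seeing the data. Gene positions and UTRs came from GENCODE (GRCm38), which matched 55450 identifiers, and promoters and mature microRNAs from RefSeq (GRCm38.p6). Replicate numbers did not pair the libraries: deviations of same-numbered libraries had mean correlations of 0.0051, 0.062 and 0.021 in the 3 comparisons.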

Additional observations from a re-analysis of the deposited data

Results flagged for a closer look

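In each of the 10 factors and 3 lines, the highest or lowest library was compared with the others of its line. In 2 of the 30 groups its distance to the nearest library, divided by the range of the line, was above Dixon's 95% critical value for 6 samples, where chance gives about 1.5. Tfcp2l1 in HM replicate 6 was at 0.85 TPM, with the next library at 0.44 TPM (ratio 0.774). Tbx3 in HM replicate 3 was at 0.75 TPM, with the next at 0.25 TPM (ratio 0.781). Both genes are under 1 TPM on average.

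The effect against WT differed between HM and HetKO for 3 factors. As both share the WT libraries, the difference of the effects equals HM against HetKO, which limma tested directly. It was 2.62 on the log2 scale for Nr0b1, 1.62 for Zfp42 and 0.59 for Klf5. Nr0b1 lay above WT in HM and below it in HetKO, with no overlap on either side. The call of Klf5 was lost when alike libraries were averaged.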

How the results depend on the processing

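Depth cannot be had from TPM, each genotype is 1 line, and most factors sit near 1 TPM, where the filter and pseudocount weigh most. Of 177 fold changes of factors recomputed, 146 kept their direction and side of the threshold, 12 newly passed, 15 no longer passed and 4 reversed. The reversals were of values near 0: Klf2 in HetKO against WT became 0.026 centred, 0.22 quantile normalized and 0.027 without WT replicates 1 and 4, and Klf4 in HM against HetKO became 0.084 centred.

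The 2 factors called in HM against WT became 4 with no filter, 1 at a mean of at least 5 TPM, 4 centred and 4 quantile normalized. With no filter the 2 added were Tfcp2l1 and Tbx3, both lower in HM and untested in the main fit. When centred or quantile normalized they were Klf4 and Zfp42, both higher in HM. The 3 called in HetKO against WT became 1 at 5 TPM, 0 with pair means and 1 without WT replicates 1 and 4. The 3 called in HM against HetKO became 1 at 5 TPM. Fewer genes were tested at 5 TPM and more with no filter, while the cause was not tested for the other settings. With pair means, which leave 3 values a line, genes called fell from 7220 to 3414, from 1421 to 35 and from 4765 to 454, and list genes called from 43 to 26, from 17 to 0 and from 28 to 6. In HetKO against WT the unequal-variance test called 852 genes and 7 list genes, and list genes numbered 11 at 5 TPM and 9 without WT replicates 1 and 4. At 0 list genes, limma gave 18 at an unadjusted p under 0.05.

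The replicate block called 6889, 1206 and 4200 genes and ended the calls of Klf5 in HetKO against WT (adjusted p = 0.08527) and in HM against HetKO (0.092). The numbers share no stated origin, and same-numbered libraries correlated above 0.1 in 1, 1 and 2 of 6 pairs, so this block only shares a number.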
